A study of Drosophila melanogaster with 10 samples.

Results

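The comparison described here set SL2 cells treated with either of a pair of overlapping dsRNAs against Tip60 beside mock-treated cells. It used 8 of the 10 arrays of the study. Positions 190-807 of the Tip60 sequence were targeted on 2 arrays (replicates 1 and 3), positions 603-1116 on 2 arrays (replicates 1 and 3), and eGFP, which has no counterpart in the fly, on 4 arrays (replicates 2-1, 2-2, 3-1 and 3-2). The 4 Tip60 arrays were chosen by these positions in the sample labels and pooled, and the other 2 arrays of the study carried a dsRNA to positions 1321-1618. SL2 is a Drosophila melanogaster cell line of embryonic origin with properties of blood cells. Every group, eGFP included, received 10 µg of dsRNA and was harvested after 5 days, and cells were cultured at 26 °C. The dsRNA to 190-807 is 618 nucleotides long and that to 603-1116 is 514, and they share nucleotides 603 to 807. This shared stretch of 205 nucleotides is 33.2% of the first and 39.9% of the second, so the reagents are not independent. The dsRNA to 1321-1618 starts after a gap of 204 nucleotides and shares no position with either.

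Tip60 is the acetyltransferase subunit of a large nuclear complex that acetylates histones and, through its Domino ATPase subunit, exchanges histone variants in nucleosomes. In flies the complex takes part in DNA repair, in the switching on of genes and in the upkeep of heterochromatin. A long dsRNA taken up by SL2 cells is cut by Dicer-2 into short RNAs that direct the destruction of matching transcripts, so that any transcript with enough matching sequence can be affected. Which other transcripts the dsRNAs match was not examined.

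Each array measured 18952 probe sets as a signal intensity, of which 18769 were fly probe sets. Probe sets at or above a signal of 34.1 (the 40th percentile of the mean over the 8 arrays) were tested, 11261 in all. The first principal component, 33.8% of the variance, placed the Tip60 arrays between −44.7 and −24.3 and the eGFP arrays between 25.6 and 39.0. On the second, 13.7% of the variance, replicate 1 of dsRNA 190-807 stood alone at 53.3, and the remaining 7 arrays lay between −19.4 and 2.58. Across probe sets the log2 signals correlated at 0.959 between the 190-807 arrays, at 0.961 between the 603-1116 arrays and at 0.955 to 0.964 between the dsRNAs. The Tip60 arrays correlated with the eGFP arrays at 0.948 to 0.959, and the eGFP arrays with each other at 0.964 to 0.972. Whether replicates were grown separately is not given in the labels, and the p-values therefore reflect the scatter among these arrays alone, possibly technical.

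Tip60 itself, a gene on the X chromosome, had signals of 209 and 399.6 with dsRNA 190-807, 382 and 292 with dsRNA 603-1116, and 1339, 1315, 1163 and 1138 on the eGFP arrays. Every Tip60 RNAi array lay below every eGFP array, and the lowest and the highest of the 4 were the replicates of dsRNA 190-807. The mean of 321 ± 88.3 on the Tip60 RNAi arrays was 25.9% of the mean of 1239 ± 103 on the eGFP arrays (SD, n = 4 each). The level was 24.6% with dsRNA 190-807 and 27.2% with dsRNA 603-1116, beside 22.7% with dsRNA 1321-1618. The log2 change was −1.99 (SE 0.17, 95% interval −2.36 to −1.62, limma adjusted p = 1.14e-06). By a two-sided exact permutation test p was 0.0286, the smallest that the 70 splits of 8 arrays into groups of 4 allow, and 0.0571 adjusted over 8 measures taken once per array. Between the dsRNAs the log2 signal of Tip60 differed by −0.21 (190-807 minus 603-1116, 95% interval −0.74 to 0.32, adjusted p = 0.857). Where the probe set lies relative to the dsRNAs was not examined.

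**Figure D1:**
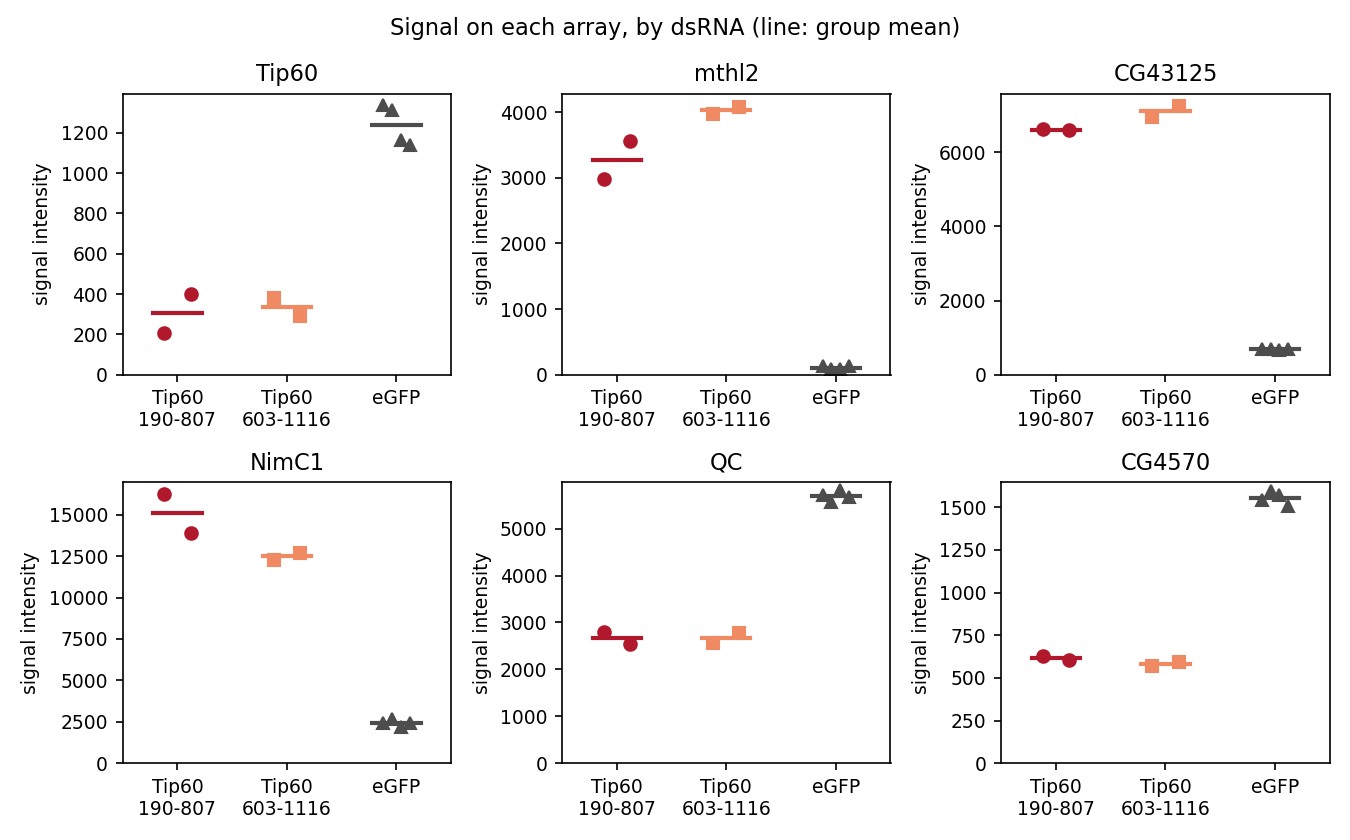
Signal intensity (linear scale, from 0) of 6 genes on each array, with dsRNA 190-807 (circles, n = 2), dsRNA 603-1116 (squares, n = 2) and eGFP dsRNA (triangles, n = 4), and the mean of each group as a line. Tip60, QC and CG4570 were below all eGFP arrays on each Tip60 RNAi array, and mthl2, CG43125 and NimC1 above them.

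Across all probe sets tested, 3477 (30.9%) differed between the Tip60 RNAi arrays and the eGFP arrays at a Benjamini-Hochberg adjusted p under 0.05 in limma, which is what rose, fell and called mean below. Of these 1775 rose (15.8%) and 1702 fell (15.1%). They came from 1330 and 1491 named genes. On the deposited scale the rises were the larger: 469 reached 2-fold, against 41 of the falls. The median log2 change was 0.62 among called rises and −0.39 among called falls. On all 4 Tip60 RNAi arrays 1834 probe sets (16.3%) lay above every eGFP array, of which 1449 were called, and 1675 (14.9%) lay below, of which 1496 were called. A further 532 called probe sets overlapped between the groups. The 2-fold counts depended on the scale, with 208 rises and 109 falls after quantile normalization. With arrays scaled to the poly-A spike-ins described below they were 100 and 2760, so that falls were the larger there.

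The counts shifted with brightness, and so did control probe sets. In the dimmest of 4 equal classes (mean signals of 34.2 to 89.8) the median log2 change was 0.55, with 199 rises and 10 falls. In the brightest class it was −0.04, with 616 rises and 857 falls. The authors' software scaled each array to the same trimmed mean of 1000, so that every change reported is relative to that mean. On that scale the poly-A spike-ins, 27 bacterial probe sets for transcripts usually added to the RNA before labelling, were higher by 0.84 (log2) on the Tip60 RNAi arrays. Their mean log2 signals were 9.40 ± 0.23 on the Tip60 RNAi arrays and 8.56 ± 0.17 on the eGFP arrays, and did not overlap (exact permutation p = 0.0286, adjusted 0.0571). The 18 hybridization spike-ins were higher by 0.59 (exact p = 0.0571, adjusted 0.0914), and 117 other controls by 0.50 (exact p = 0.0857, adjusted 0.114). Fly probe sets too dim to be tested were higher by 0.65 (exact p = 0.0286, adjusted 0.0571). The 3′ to 5′ signal ratio of the actin control probe sets was 1.27 ± 0.06 on the Tip60 RNAi arrays and 1.25 ± 0.07 on the eGFP arrays, and that of the GAPDH controls 1.58 ± 0.07 and 1.60 ± 0.13 on the same arrays. Rescaled to the poly-A spike-ins, all log2 changes drop by 0.84, and 162 probe sets were called higher and 6968 lower. With the hybridization spike-ins, a setting chosen after the data were seen, the counts were 209 and 3912. Any called rise below 0.84 is therefore a rise relative to the array's trimmed mean that turns negative on the poly-A scale, and no fall turns. The part of the brightness and control shifts in the calls was not tested.

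**Figure D2:**
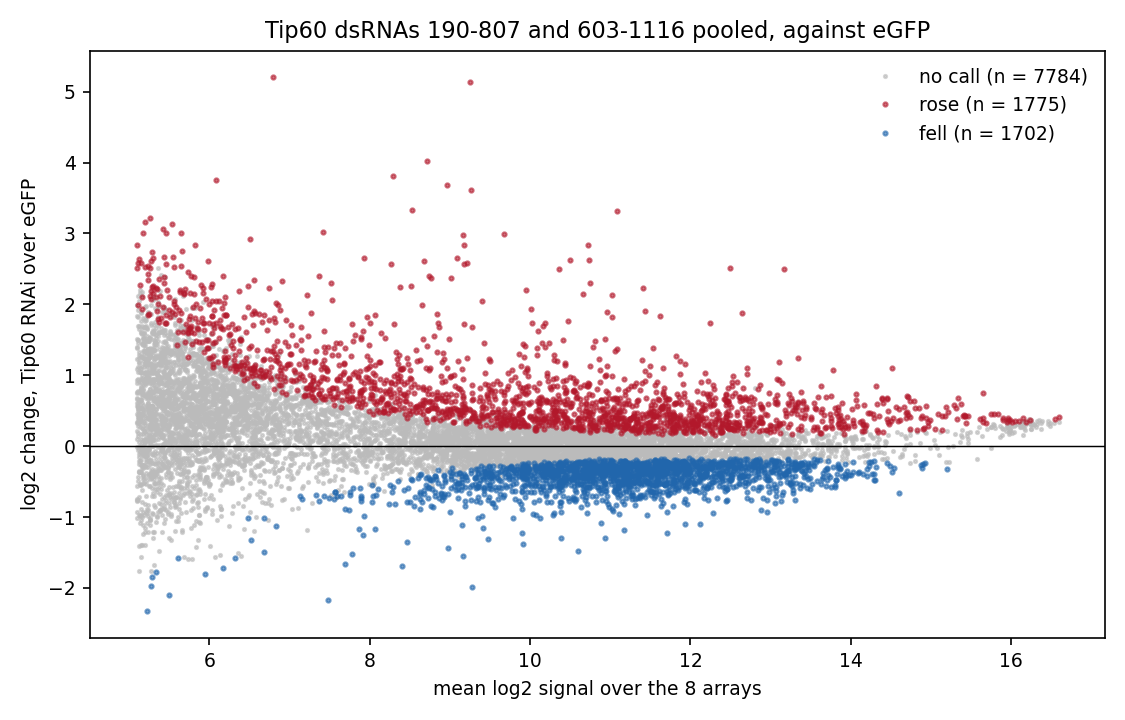
Log2 change (Tip60 dsRNAs 190-807 and 603-1116 pooled, over eGFP) against the mean log2 signal over the 8 arrays, for the 11261 probe sets tested, with called rises in red (1775), called falls in blue (1702) and the rest in grey. The largest changes are rises, and called falls lie mostly among bright probe sets, between 0 and −1.

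The largest rises included receptor and lectin genes and several genes known only by number. The Methuselah-family receptor gene mthl2 had signals of 2978 and 3560.3 with dsRNA 190-807, 3972 and 4084 with dsRNA 603-1116, and 136, 81.8, 78.8 and 127 on the eGFP arrays. The groups stood far apart, 35.3-fold by the fit (log2 change 5.14, SE 0.18, adjusted p = 1.16e-10). lectin-24A, a C-type lectin gene, had 769 and 646 with 190-807, 658 and 630.4 with 603-1116, and 14.2, 23.0, 7.91 and 43.6 with eGFP (5.20, SE 0.43). Its eGFP signals were mostly under the filter level of 34.1, so the size of its rise is imprecise, with a 95% interval of 4.28 to 6.12. The same holds for CG13937 (log2 change 3.76), the nociceptive channel gene pain (3.22), CG42323 (3.16), the cytochrome P450 gene Cyp4s3 (3.14) and the scavenger receptor gene Sr-CIII (3.06), whose eGFP means were also below that level. Another probe set of CG42323 showed 0.96 and no call.

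CG43125 had the smallest p of all: 6637, 6595, 6949.8 and 7259.5 on the Tip60 RNAi arrays, against 697, 697, 678 and 686 on the eGFP arrays (log2 change 3.31, SE 0.06, adjusted p = 1.18e-13). The spread within each group was small beside the distance between them. Next in order of p came mthl2, then NimC1, a phagocytosis receptor of blood cells, with 16277 and 13920.0 for 190-807, 12274 and 12710.0 for 603-1116, and 2178 to 2645 on the eGFP arrays (2.51, SE 0.09). CG5397 (2.63) and CG14273 (1.89) completed the 5 rises of smallest p. Among the largest rises CG34054 (4.03), CG1208 (3.81), CG10764 (3.68) and Ance-5 (3.34), a relative of angiotensin-converting enzyme, started from eGFP means of 86.3 to 141, above the filter. All 12 of the largest rises and the 5 of smallest p exceed 0.84, so the fixed shift to the poly-A scale necessarily leaves them positive.

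The falls were shallower and several were dim. The endoribonuclease gene EndoU had 72.4, 86.1, 67.3 and 119.9 on the Tip60 RNAi arrays and 324, 347, 439 and 418 on the eGFP arrays (log2 change −2.17, SE 0.23, adjusted p = 9.14e-06), and its other probe set fell by 1.69. The cytochrome P450 gene Cyp4d1 had 20.5, 24.4, 19.7 and 23.7 against 87.1, 101, 73.8 and 119 on the eGFP arrays (−2.10, SE 0.51, adjusted p = 0.00552). The groups did not overlap for either gene. The Tip60 RNAi signals of Cyp4d1 were all under the filter level of 34.1, which the gene passed through its eGFP signals, so the size of its fall is imprecise (95% interval −3.18 to −1.01). With dsRNA 1321-1618 Cyp4d1 had 58.1 and 107, a difference from the overlapping dsRNAs that was not called. CG31546 averaged 119 ± 32.9 on the Tip60 RNAi arrays and 368 ± 34.2 on the eGFP arrays (−1.66), and CG16888 338 ± 48.0 and 982 ± 102 on the same arrays (−1.54; SD, n = 4 each).

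Of the other falls among the 12 largest, 6 genes were sensitive to single arrays. With each of the 8 arrays dropped in turn, CG31807 (−2.33) was no longer called in 3 fits, rdo (−1.97) in 6, SelR in 6, Cyp49a1 (−1.78) in 7, Pgant2 in 6 and mthl15 (−1.57) in 5, with adjusted p up to 0.113. SelR, a methionine sulfoxide reductase gene, had 60.1 and 96.4 with 190-807, 11.2 and 18.2 with 603-1116, and 103, 127, 117 and 117 with eGFP, so that most of its fall of 1.81 came from the 603-1116 arrays. Pgant2, a glycosyltransferase gene that starts O-linked sugar chains, had 74.5 and 80.3, then 48.4 and 8.77, against 102 to 174 with eGFP. Most of its fall of 1.71 also came from the 603-1116 arrays, above all from the array at 8.77. Against eGFP, SelR, Pgant2 and rdo were called with 603-1116 only, and Cyp49a1, mthl15 and CG31807 with 190-807 only. With 190-807 and 603-1116 in that order, Cyp49a1 was at −2.38 and −1.17 and mthl15 at −2.24 and −0.90. CG31807 was at −2.73 and −1.925, and rdo at −1.54 and −2.41. The difference between the dsRNAs was not called in any of these 6 genes. At their brighter probe sets SelR fell by 0.56 and Pgant2 by 0.56. The other probe set of mthl15 was at −0.97 with no call.

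By p the clearest falls were bright. QC, which encodes glutaminyl cyclase, had 2789.6, 2539.7, 2561 and 2775 on the Tip60 RNAi arrays and 5712, 5567, 5829 and 5671 on the eGFP arrays (log2 change −1.10, SE 0.06, adjusted p = 1.25e-08). CG4570 had 629, 607, 570.0 and 593 against 1545, 1597, 1574 and 1507 with eGFP (−1.38, SE 0.08). In both genes the 4 Tip60 RNAi signals lay within a narrow band far below eGFP. CG42565 (−1.09), CG43103 (−1.18) and CG8891 (−0.94) followed, though a dimmer probe set of CG42565 was at 0.84 with no call.

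**Figure D3:**
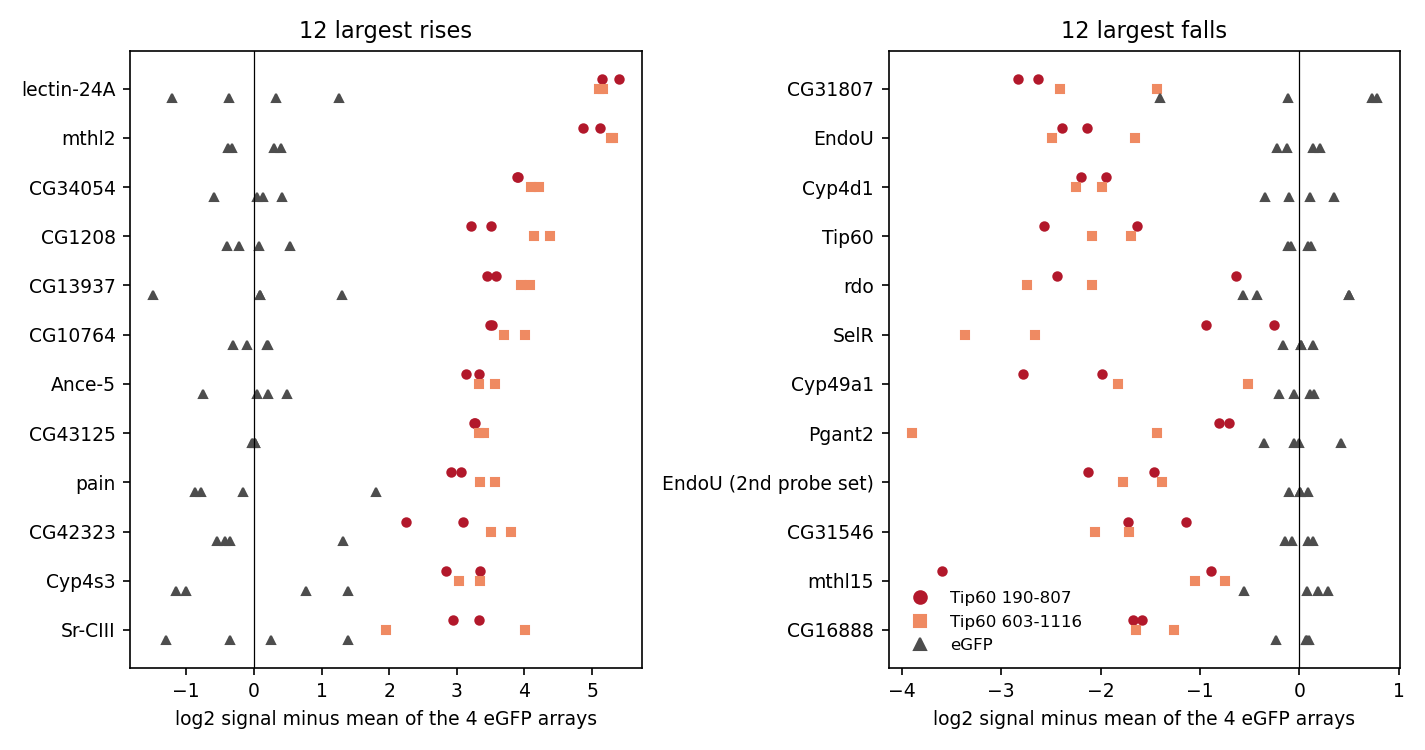
Log2 signal on each array minus the mean of the 4 eGFP arrays, for the 12 called probe sets with the largest rises (left) and falls (right) whose groups do not overlap, with dsRNA 190-807 as circles, dsRNA 603-1116 as squares and eGFP as triangles. Most of the rises are higher with 603-1116 than with 190-807 by the mean log2 signal, CG1208 and CG42323 by the most. lectin-24A and Sr-CIII are slightly lower with 603-1116. Among the falls SelR and Pgant2 are the furthest below with 603-1116, while mthl15 and Cyp49a1 are lower with 190-807.

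Gene lists were counted with each gene at its brightest probe set. Of 8288 genes so counted 15.5% rose and 17.8% fell, and the median log2 change was 0.04. The 58 lists held 695 different genes that were tested, of which 125 rose and 142 fell. For each list the number tested is given, since members under the filter are missing from it. Shares also depended on brightness. Of 2815 probe sets in the brightest class 616 rose and 857 fell, and of 2815 in the class below it 422 and 641. Of 2816 in the dimmest 199 rose and 10 fell. No list was set beside genes of like brightness, and a count near these shares is not a result about the list. Where no such remark is made below, a difference from these shares was not tested either.

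Of 13 tested members of the Tip60 complex 5 fell, the targeted gene Tip60 included, and 1 rose, with a median of −0.14. Besides Tip60 these were MrgBP (2938 ± 366 on the Tip60 RNAi arrays, 4440.4 ± 481 on the eGFP arrays, −0.60), the AAA ATPase genes rept (−0.47) and pont (−0.26), and Gas41 (−0.23), a reader of acetylated histones. dom, the gene of the remodelling ATPase Domino, rose by 0.43 and by 0.50 and 0.23 at its other probe sets, though its signals overlapped between the groups and all 3 changes are negative on the poly-A scale. Among 18 tested subunits of SAGA and other acetyltransferases 2 rose and 2 fell (median 0.02). The SAGA genes Spt7 (0.44) and Ada2b (0.38) rose, negative on the poly-A scale, and Hat1, which acetylates new histones, fell by 0.40.

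All 6 tested RNA polymerase II subunits fell (median −0.35; 5 of 6 after quantile normalization), with Polr2H at 2584, 2668, 2384 and 2592 on the Tip60 RNAi arrays and 3821, 3682, 3796 and 3206 on the eGFP arrays (−0.50, SE 0.07, adjusted p = 0.000119), and Polr2E at −0.49. Of 26 Mediator subunits, which link activators to the polymerase, 5 fell and 0 rose (median −0.09), a share of falls near that of all genes. MED19 fell by 0.59 and MED1 by 0.55. Among 13 Integrator subunits, which cleave nascent transcripts, 2 rose and 0 fell (median 0.10), a share of rises near that of all genes. IntS6 rose by 0.61 and was negative on the poly-A scale. Of 14 histone chaperones and variants 3 fell and 1 rose (median −0.09), a share of falls near that of all genes. Nasp was at −0.63 and asf1 at −0.54, with Ssrp, a FACT subunit, at 0.26 and negative on the poly-A scale. Of 12 ISWI, CHD and INO80 remodelers 4 fell and 1 rose (median 0.03), a share of falls near that of the brightest class. Iswi was at −0.39, Chd1 at −0.36 and simj, of the NuRD complex, at 0.60 (negative on the poly-A scale). In the SUMO pathway 2 of 8 fell and 0 rose (median −0.22), a share of falls near that of the class below the brightest. The protease gene velo fell by 0.56 and the E1 enzyme gene Aos1 by 0.42. Without replicate 1 of dsRNA 190-807 there were 4 falls.

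Of 18 core spliceosome genes 10 fell and 1 rose (median −0.31, the same counts after quantile normalization). SmE, of the Sm ring around spliceosomal RNAs, had 6469.8, 6023, 5553 and 5723 on the Tip60 RNAi arrays and 9273, 8984, 8867 and 9173 on the eGFP arrays (−0.61, SE 0.06, adjusted p = 7.32e-06). SmD3 fell by 0.61 as well. Of 23 nuclear pore genes 10 fell and 0 rose (median −0.19; 6 fell after quantile normalization), with Nup75 at −0.49 and Nup205 at −0.34. Of 14 genes of purine and pyrimidine synthesis 8 fell and 2 rose (median −0.30), and the purine enzyme genes Prat (1720.0 ± 114 against 2728 ± 54.8 with eGFP, −0.67) and Pfas (−0.64) fell most. Translation initiation factors were split, 3 of 27 higher and 3 lower (median 0.02; 3 and 5 after quantile normalization). The helicase gene eIF4A rose by 0.40, negative on the poly-A scale, and the cap-binding gene eIF4E1 fell by 0.32. Of 8 subunits of the CCT chaperonin, which folds actin and tubulin, 4 fell and 1 rose (median −0.16), CCT7 by −0.40 and CCT8 by −0.30.

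Of 9 mitochondrial import genes 5 fell and 0 rose (median −0.23). Tim8, a chaperone of the space between the membranes, had 3188, 3024, 2749 and 3036 on the Tip60 RNAi arrays and 5444, 4738, 5872 and 5165 on the eGFP arrays (−0.82, SE 0.08, adjusted p = 2.35e-06), and the import receptor gene mge fell by 0.57. In the TCA cycle 5 of 12 fell and 0 rose (median −0.19), ScsbetaG by 0.51 and SdhC by 0.45. Of 9 genes of fatty acid beta oxidation 4 fell and 0 rose (median −0.28), among them the acyl-CoA dehydrogenase gene Arc42 (−0.73) and the acyl-CoA oxidase gene Acox57D-p (−0.49). Pex19 (−0.57) and Pex3 (−0.54), which insert peroxisomal membrane proteins, were the 2 that fell of 11 peroxisome genes, with 0 rises and a median of −0.13, a share near that of all genes. A dimmer probe set of Pex19 was at −0.26 with no call.

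Of 15 ESCRT genes, which bud vesicles into endosomes, 8 fell and 0 rose (median −0.26, the same after quantile normalization). Vps28 had 5132, 4461, 4462 and 4189 on the Tip60 RNAi arrays and 6708, 7181, 6844 and 7033 on the eGFP arrays (−0.61, SE 0.07, adjusted p = 1.59e-05), and Vps60 fell by 0.53. Of 15 subunits of the V-ATPase, the proton pump, 4 fell and 1 rose (median −0.11), a share of falls near that of the brightest class. Vha14-1 was at −0.65, Vha13 at −0.59 and VhaSFD at 0.30 (negative on the poly-A scale). Of the lysosome itself 10 of 21 lysosomal hydrolase and membrane protein genes rose and 0 fell (median 0.24; 9 and 0 after quantile normalization). On the poly-A scale 2 rose and 10 fell, with a median of −0.60, and 7 of the 10 rises were negative. The mannosidase gene LManI had 771 and 535 with 190-807, 1054 and 1111 with 603-1116, and 349, 244, 233 and 230.3 with eGFP (1.68, SE 0.21, adjusted p = 3.55e-05). All 4 arrays were above eGFP, those of 603-1116 the most. Swim, a cathepsin-like gene, rose by 1.50, more with 190-807 (1.70) than with 603-1116 (1.29), and the lysozyme gene LysX, alone of its family above the filter, by 1.00. LManI and Swim kept a called rise on the poly-A scale, which LysX did not.

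Of 17 Rab GTPases 3 rose and 2 fell (median −0.05), a share of rises near that of all genes. Rab32, known from lysosome-related organelles, was at 1.08, Rab35 at 0.50 (negative on the poly-A scale), Rab39 at −0.43 and Rab23 at −0.42. Among 11 coat genes 2 fell and 1 rose (median −0.06), a share of falls near that of all genes, with zetaCOP at −0.41 and deltaCOP at 0.30. Of 17 genes of protein folding in the endoplasmic reticulum 5 rose and 6 fell (median −0.13; 4 and 4 after quantile normalization). Hsc70-3, the chaperone BiP, had 27041, 32910.0, 29347 and 30342 on the Tip60 RNAi arrays and 22216, 19639, 21756 and 19740.0 on the eGFP arrays (0.52, SE 0.08), and calnexin (Cnx99A) rose by 0.39. The BiP exchange factor gene Sil1 and the translocon gene Sec61gamma each fell by 0.34. Of 17 N-glycosylation genes 2 rose and 1 fell (median −0.09), GCS2alpha, a glucosidase gene, by 0.35. The rises of deltaCOP, Hsc70-3, Cnx99A and GCS2alpha are negative on the poly-A scale.

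**Figure D4:**
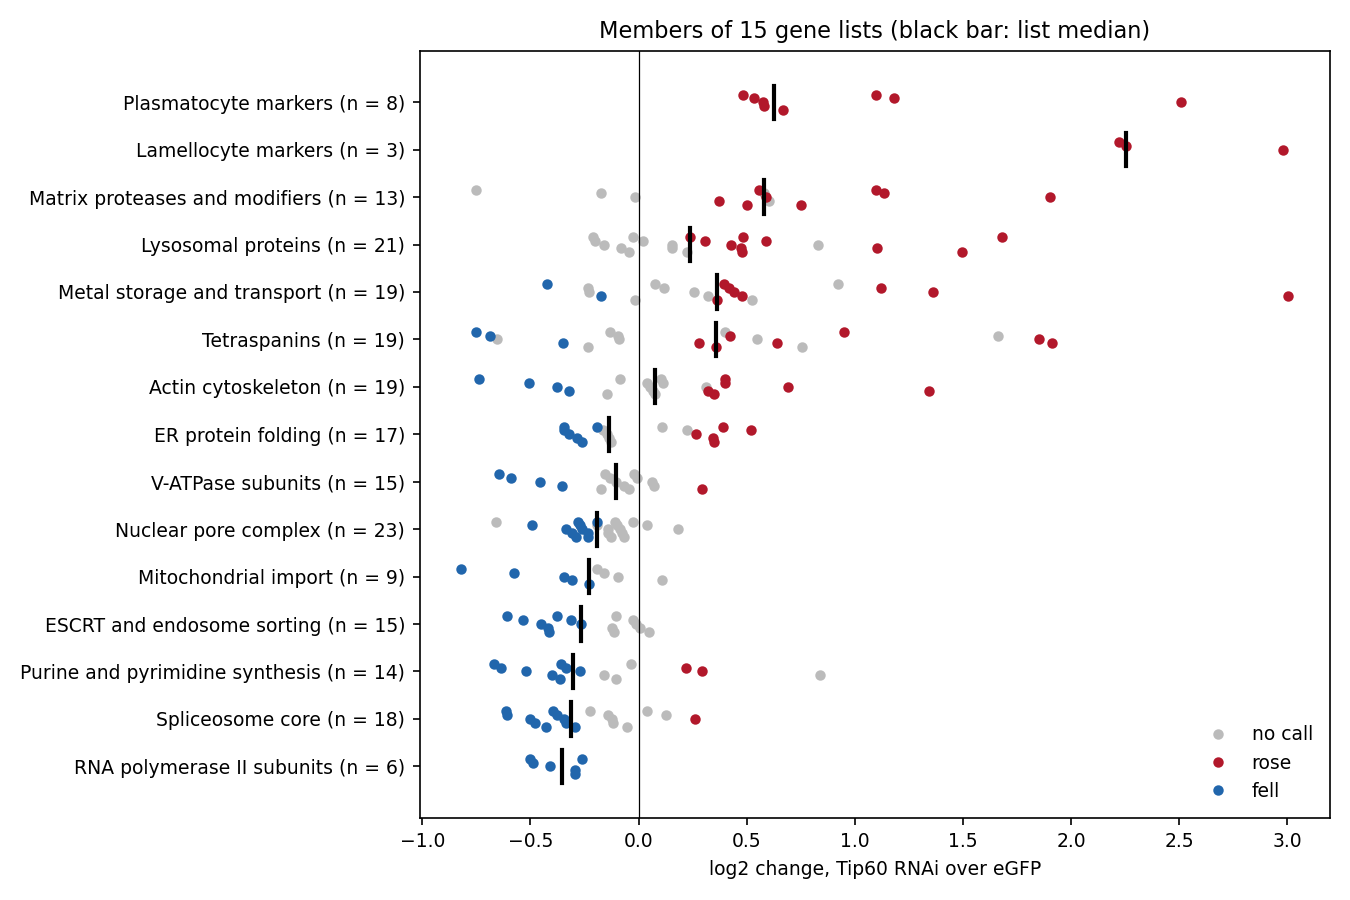
Log2 change of each tested member of 15 gene lists (Tip60 RNAi over eGFP), with called rises in red, called falls in blue, the rest in grey and the list median as a black bar. On this scale of equal trimmed means the plasmatocyte and lamellocyte lists lie right of 0 and the polymerase and spliceosome lists mostly left. With arrays scaled to the poly-A spike-ins every point moves left by 0.84.

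Of 19 actin cytoskeleton genes 6 rose and 4 fell (median 0.07), and all 4 falls were subunits of the Arp2/3 complex, which nucleates branched filaments, while its subunit genes Arpc1 (0.07) and Arpc2 (0.10) were not called. Of the rises 5 are negative on the poly-A scale. Arpc3A had 3972, 3690.1, 3240.3 and 3360.4 on the Tip60 RNAi arrays and 6176, 6192, 5442 and 5919.6 on the eGFP arrays (−0.74, SE 0.08, adjusted p = 6.02e-06), and Arpc4 fell by 0.50. The bundling protein gene sn, fly fascin, rose by 1.34 (208, 184, 152 and 170.2, against 47.2 to 103 with eGFP). The filament elongation gene ena rose by 0.69 but was negative on the poly-A scale. Of 19 tetraspanins, small membrane organizers, 7 rose and 3 fell (median 0.36; 2 of the 7 still called rises on the poly-A scale). Tsp42Eg (139, 206, 182 and 214, against at most 64.0 with eGFP) rose by 1.91 and Tsp66E by 1.85, while Tsp96F fell by 0.75 and Tsp42Ef by 0.69.

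Matrix proteases and modifiers rose in 8 of 13 cases and fell in 0 (median 0.58; 6 and 1 after quantile normalization, 0 and 3 on the poly-A scale, where 5 of the 8 were negative). The metalloprotease gene Mmp2 had 1548 and 1212 with 190-807, 1522 and 1361 with 603-1116, and 567, 641, 604 and 758 with eGFP (1.14, SE 0.11, adjusted p = 3.73e-06). The lysyl oxidase gene Loxl2 showed a larger change, 1.90, with an eGFP mean of 24.9, under the filter level, and was no longer called in 6 of the 8 fits with an array dropped (adjusted p up to 0.0796).

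Of 12 ligands and receptors of receptor tyrosine kinases 4 rose and 2 fell (median 0.03, but −0.16 after quantile normalization). The PDGF/VEGF-like ligand gene Pvf2 (0.66) and the insulin receptor gene InR (0.58) rose and were negative on the poly-A scale, and the FGF gene bnl (−0.55) and the EGF receptor ligand gene spi (−0.47) fell. The other probe sets of bnl were at 0.32 and −1.05 with no call. In the insulin and TOR pathway 4 of 14 rose and 0 fell (median 0.21), all 4 negative on the poly-A scale, and 7 rose without replicate 1 of dsRNA 190-807. In the Wnt pathway por, which encodes the acyltransferase of Wnt proteins, was the 1 call among 5 genes (0.72, median −0.07). Of 12 Hippo pathway genes 2 rose and 1 fell (median −0.01), a share of rises near that of all genes. The upstream genes ex and kibra were at 0.78 and −0.38. The other probe set of kibra was at 0.19 with no call. The rises of por and ex are negative on the poly-A scale. Among 4 tested homeotic and segmentation genes the repressor gene hry rose by 0.40, likewise negative there. The median of this list was 0.58, and 0.18 after quantile normalization.

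Of 19 ion channels 4 rose and 1 fell (median 0.13, but −0.01 after quantile normalization). The chloride channel gene Best1 rose by 0.64, and the light-activated channel gene trp fell by 1.01 but was not called in 5 of those 8 fits (adjusted p up to 0.108). Of 15 sugar and amino acid transporters 4 rose and 1 fell (median 0.19). The amino acid transporter genes mah (1.51) and sbm (2.01) rose, with eGFP means of 57.2 and 39.2. mah was not called without replicate 1 of dsRNA 603-1116 (adjusted p = 0.0539) and sbm in 5 of the fits (adjusted p up to 0.107), and JhI-21 fell by 0.37. Organic ion transporters rose in 3 of 10 cases (median 0.36, but 0.02 after quantile normalization), Oatp30B by 0.73 and Oatp74D by 0.55. ABC transporters rose in 3 of 10 cases (median 0.51), the multidrug transporter gene Mdr49 by 0.94 and rdog by 0.61, and no member of either list fell. Mdr49 had 575 and 686 with 190-807, 418 and 402 with 603-1116, and 238 to 305 with eGFP, so that the 190-807 arrays were the higher. Best1, Oatp30B, Oatp74D and rdog were negative on the poly-A scale.

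Of 19 genes of metal storage and transport 8 rose and 2 fell (median 0.37, the same counts after quantile normalization; 1 and 12 on the poly-A scale, where 5 of the 8 rises were negative). MtnB, a metallothionein, had 286 and 73.6 with 190-807, 166 and 119 with 603-1116, and 6.46, 55.0, 27.5 and 10.2 with eGFP (3.01, SE 0.70, adjusted p = 0.00412). The groups were separate but the arrays of each differed widely, and the eGFP mean of 24.8 was under the filter level, so the size of the rise is imprecise (95% interval 1.52 to 4.49). The iron carrier transferrin gene Tsf1 rose by 1.36, with 0.77 and no call at a dimmer probe set, and the zinc transporter gene ZnT86D fell by 0.42. Of 14 UDP-glycosyltransferases 2 rose and 1 fell (median 0.32), a share of rises near that of all genes. Ugt37D1 rose by 1.00 and Ugt37A1 by 1.83, in Ugt37A1 with overlapping groups and a call lost without replicate 3 of 190-807 (adjusted p = 0.0604). Of 11 carboxylesterases 2 rose and 2 fell (median 0.25, but −0.31 after quantile normalization), shares near those of all genes. alpha-Est8 was at 0.55, alpha-Est7 at −0.97 and Gli, a cell junction protein of this family, at −0.45. Of 17 peroxidases and redox enzymes 5 rose and 2 fell (median 0.04; 3 and 4 after quantile normalization), and all 5 rises are negative on the poly-A scale. Gclc, of the first step of glutathione synthesis, rose by 0.58, and the mitochondrial superoxide dismutase gene Sod2 (−0.65) and the thioredoxin reductase gene Trxr1 (−0.24) fell. The rise of alpha-Est8 is negative on the poly-A scale.

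Of 19 centriole and centrosome genes 5 fell and 0 rose (median −0.11; 8 and 2 without replicate 1 of dsRNA 190-807). The share of falls lies between those of the brightest class and the class below it. The centrosome gene spd-2 had 984, 841, 881 and 949 on the Tip60 RNAi arrays and 1762, 1976, 1518 and 1757 on the eGFP arrays (−0.94, SE 0.09, adjusted p = 4.15e-06), and Cep135 fell by 0.61. Of 10 cytokinesis genes 4 fell and 2 rose (median −0.19), with tum at −0.68 and the midzone microtubule gene feo at −0.41. Septin4 rose by 1.27 (266, 458, 456 and 415, against 139 to 196 with eGFP). Among 21 genes of recombination and repair 1 fell and 1 rose (median 0.03), the mismatch repair gene Msh6 by −0.53.

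Genes of stress and of the response to dsRNA were counted because every group received dsRNA. Of 9 stress-induced genes 3 rose and 0 fell (median 0.64; 5 rose without replicate 1 of dsRNA 190-807), Gadd45 by 0.75 (1265 ± 78.2 against 750.2 ± 57.8 with eGFP) and the small heat shock gene Hsp26 by 0.64, both negative on the poly-A scale. Of 11 genes of the dsRNA and virus response 4 rose and 2 fell (median −0.01). Srg2, a target of the STING pathway, had 298, 276, 279 and 363 on the Tip60 RNAi arrays and 118, 91.7, 95.1 and 89.7 on the eGFP arrays (1.62, SE 0.21, adjusted p = 4.70e-05) and kept a called rise on the poly-A scale. ref(2)P, which restricts sigma virus, rose by 0.43 and was negative there. The gene of Dicer-2, Dcr-2, which starts the response to long dsRNA, fell by 0.38 and the helicase gene armi by 0.33. Of 11 serine proteases 4 fell and 1 rose (median −0.08), flz by −0.70, and of 9 odorant binding proteins Obp99c fell by 0.97 (median −0.24). Of 9 cuticle and chitin genes 1 rose and 0 fell (median 0.46), and after quantile normalization 0 rose.

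SL2 cells express genes of several fly blood cell classes, and these moved differently. All 8 plasmatocyte (macrophage) markers tested rose, with 7 separate between the groups and a median of 0.63. This count held after quantile normalization and without replicate 1 of dsRNA 190-807, while 5 of the 8 were negative on the poly-A scale. Their summed signal was 176430 to 215990 on the Tip60 RNAi arrays and 109940 to 131480 on the eGFP arrays. The scavenger receptor gene Sr-CI had 12755, 13859, 13221 and 13376 on the Tip60 RNAi arrays and 6286, 5881, 5954 and 5353 on the eGFP arrays (1.18, SE 0.07, adjusted p = 1.23e-08). Beside NimC1 the others were the matrix peroxidase gene Pxn (1.10), the clotting protein gene Hml (0.67), the phagocytosis receptor genes crq (0.58) and eater (0.53), and the collagen IV genes Col4a1 (0.58) and vkg (0.48). Hml, crq, eater, Col4a1 and vkg are among the 5 that turned. In RNA from whole cultures, more cells of a type and more RNA per cell cannot be told apart, nor can fewer cells and less RNA per cell.

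The 3 lamellocyte markers had the highest median of the 58 lists, 2.25, and stayed called rises under each scaling tried. Lists were chosen with earlier results of these data known, so the rank of this list of 3 is not independent evidence. Lamellocytes are flat cells that wrap parasites. The surface protein gene atilla had 1263 and 1066 with dsRNA 190-807, 2185 and 2322 with dsRNA 603-1116, and 226, 240.2, 185 and 174 with eGFP (2.98, SE 0.22, adjusted p = 1.89e-07). The integrin gene ItgaPS4 had 653 and 693, then 860.0 and 1065, against 150.2 to 217 with eGFP (2.25, SE 0.18). mthl4 had 4879.7 and 5099, then 6443 and 7309, against 1185 to 1347 with eGFP (2.22, SE 0.11), and 2.13 at its other probe set. In each of these genes both 603-1116 arrays lay above both 190-807 arrays and all of them far above eGFP. The difference between the dsRNAs did not pass the test in any of the 3 (adjusted p = 0.223 for atilla, 0.565 for ItgaPS4 and 0.285 for mthl4). Their summed signal was 6796 to 10697 on the Tip60 RNAi arrays and 1562 to 1729 on the eGFP arrays.

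Crystal cell markers, of the cells that store melanizing enzymes, were mixed. Of 4 tested 2 rose and 1 fell (median 0.26). After quantile normalization 1 rose and 1 fell, with a median of −0.14. The prophenoloxidase gene PPO1 had 19029, 15511, 17433 and 16956 on the Tip60 RNAi arrays and 22564, 23670.0, 23680.0 and 20649 on the eGFP arrays (−0.40, SE 0.08, adjusted p = 0.0015). The transcription factor gene lz rose by 0.45 and PPO2 by 0.23, both negative on the poly-A scale, and PPO2 was not called in 7 of the 8 fits with an array dropped (adjusted p up to 0.125).

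Markers of other tissues were counted too. Of the neuron markers elav was at 384 ± 67.3 on the Tip60 RNAi arrays and 433 ± 57.0 on the eGFP arrays, brp at 611 ± 106 and 502 ± 28.3, and para at 63.5 ± 57.7 and 48.3 ± 48.1 on the same arrays (SD, n = 4 each). None was called, and their summed signal was 823 to 1208 on the Tip60 RNAi arrays and 937 to 1083 on the eGFP arrays. The muscle genes bt (0.20, adjusted p = 0.0932) and sls (0.15) were not called, nor were the fat body genes Lsp2 (0.53), Yp2 (0.33) and Yp3 (0.32). Of 3 glia markers moody, a receptor of the blood-brain barrier, fell by 0.69, while repo (0.69) and Gs2 (0.36) were not called. Of 4 germline genes the innexin gene zpg fell by 0.40, and of 5 epithelial genes cora rose by 0.61, negative on the poly-A scale, and 2 fell, among them Nrx-IV by 0.32, both of the septate junction. The part of any such cells in the results above was not tested.

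The comparison between the dsRNAs asked whether the pooled result hides differences between reagents. Against eGFP alone 2468 probe sets were called with dsRNA 190-807 (21.9%; 1184 higher and 1284 lower) and 2998 with dsRNA 603-1116 (26.6%; 1468 higher and 1530 lower). These counts share the 4 eGFP arrays. Set directly against each other, 190-807 minus 603-1116, 0 of 11261 probe sets (0%) were called by limma, with a smallest adjusted p of 0.14, and 956 had an unadjusted p under 0.05. Over the 469 rises of at least 2-fold the median log2 change was 1.45 with 190-807 and 1.59 with 603-1116, and over the 41 falls it was −1.31 and −1.23. By array, the median over the same 469 was 1.47 and 1.48 for the replicates of 190-807 and 1.64 and 1.62 for those of 603-1116.

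What this comparison could resolve depended on brightness. The median 95% interval of the difference reached 0.36 to either side, and in 66.0% of the probe sets the interval lay wholly within ±1 on the log2 scale, a 2-fold difference. In the brightest class that share was 99.7%, with a median half-width of the interval of 0.22. In the dimmest class it was 0%, with a half-width of 1.87, so that differences of 2-fold between the dsRNAs were not detectable there. Among the 510 called changes of at least 2-fold the difference ran from −0.83 to 0.52 between the 5th and 95th percentiles. In 50 of them (9.80%) its unadjusted limma p was under 0.05, beside 956 of all 11261 probe sets. These were 40 of the 469 rises (8.53%) and 10 of the 41 falls (24.4%). Among those falls the same percentiles were −0.83 and 1.27, so the dsRNAs differed more often in the large falls. With an array left out a dsRNA has 1 array, which the fit assumes to vary like the other groups. Without replicate 3 of 190-807, which leaves replicate 1, the array apart on the second principal component, 91 probe sets were called, 11 of them higher with 190-807. Without replicate 1 of 603-1116 there was 1. With the poly-A scaling there were 8.

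**Figure D5:**
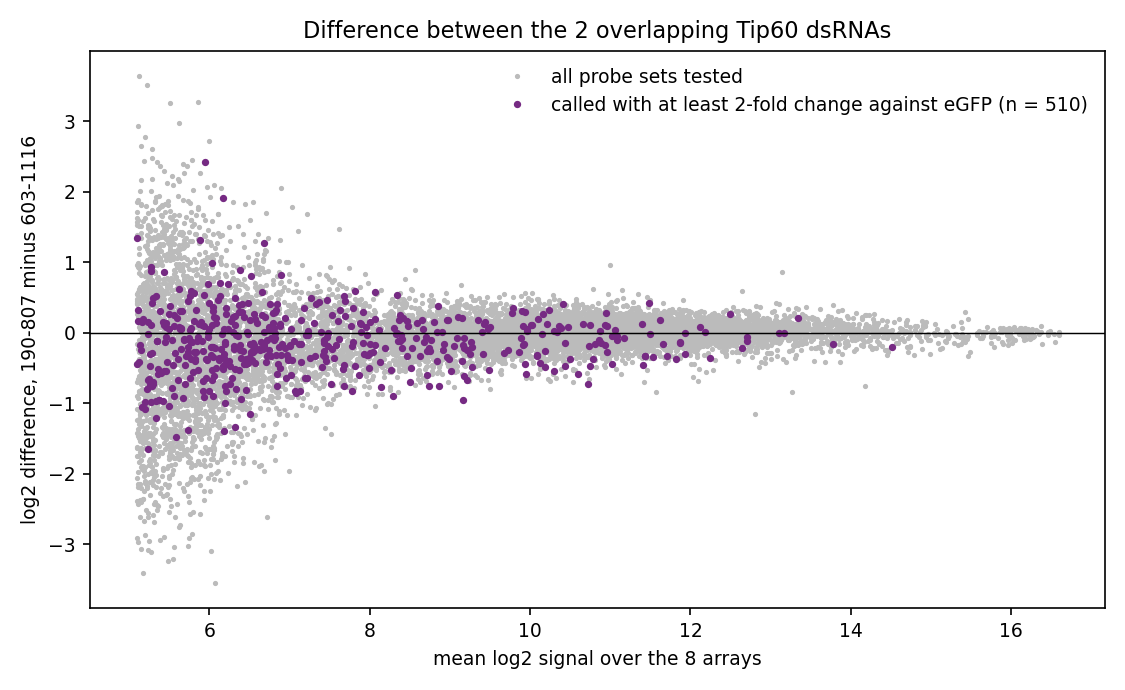
Log2 difference between the dsRNAs (190-807 minus 603-1116) against the mean log2 signal over the 8 arrays, for all 11261 probe sets tested (grey) and for the 510 called with at least a 2-fold change against eGFP (purple). Bright probe sets lie within about ±1 of 0 and dim ones scatter widely.

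The genes with the smallest p in that difference did not pass the adjustment and are given as values. CG3348 had 14567 and 12080.0 with dsRNA 190-807 and 6871 and 7712 with dsRNA 603-1116, beside 7494 to 10018 with eGFP, a difference of 0.87 (95% interval 0.57 to 1.16, adjusted p = 0.14). Prx6c, a peroxiredoxin gene, had 2932 and 2369.9 with 190-807 and 1257 and 1476 with 603-1116, beside 1778 to 2536 with eGFP (0.95). Against eGFP, CG3348 was called with 190-807 (0.67, limma adjusted p = 0.00125) and not with 603-1116 (−0.19). Prx6c was called with 603-1116 (−0.69, limma adjusted p = 0.00195) and not with 190-807 (0.26). Pooled, the Tip60 RNAi arrays did not differ from eGFP in the test in either gene (adjusted p = 0.354 and 0.453). Both differences were called without replicate 3 of 190-807 (adjusted p = 0.00821 and 0.0114), which leaves 190-807 with replicate 1 alone, and with the poly-A scaling. Pi4KIIIalpha, a lipid kinase gene, had 3285 and 3520.3 with 190-807 and 2298 and 2164 with 603-1116, beside 1727 to 2049.5 with eGFP (0.61). It rose in the pooled comparison by 0.55, negative on the poly-A scale.

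In the other direction CG33225 had 3822 and 3192 with 190-807 and 5829 and 5768 with 603-1116, beside 535 to 713 with eGFP, a difference of −0.73 (adjusted p = 0.223). For alpha-Est7 the difference was −0.54, with 1834 and 1515 against 2439 and 2395 with 603-1116, and 3771 to 4092 with eGFP. For atilla it was −0.96. These 3 genes were called in the pooled comparison in 1 direction with both dsRNAs (CG33225 rose by 2.84), and the difference lay in size.

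Set against the non-overlapping dsRNA 1321-1618, the mean of the overlapping dsRNAs differed at 4 of 11261 probe sets (0.0355%), 3 higher and 1 lower, and 947 had an unadjusted p under 0.05. The imaginal disc growth factor gene Idgf2 had 25361 and 24794 with 190-807 and 29616 and 29416 with 603-1116, against 47630.0 and 56528 with 1321-1618 (log2 difference −0.93, adjusted p = 0.00171), and 31648 to 36110.0 with eGFP. The overlapping dsRNAs thus lay a little below eGFP and 1321-1618 above it. For larp, an RNA-binding protein gene, the probe set had 243, 134, 213 and 219 with the overlapping dsRNAs, against 19.6 and 27.3 with 1321-1618 (3.09, adjusted p = 0.00334), and 152 to 293 with eGFP, so that the 1321-1618 arrays were the ones apart. CG3740 had 322, 273, 464 and 359.5, against 99.0 and 107 with 1321-1618 (1.75, adjusted p = 0.0034), and 224 to 279 with eGFP. The last, a probe set with no gene name, was higher by 0.51 (adjusted p = 0.0423) and was not called in 7 of the 10 fits with an array dropped. In 69.3% of the probe sets the 95% interval of this difference lay within ±1. In the brightest class that share was 99.9%. In the dimmest it was 0.85%, with a median half-width of 1.62, so 2-fold differences there were mostly not resolved.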

How the data were processed

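RNA of SL2 cells was measured on Affymetrix Drosophila arrays, 1 per sample. The deposited values are signal intensities per probe set, made with GCOS 1.4 per the submitters' processing notes. Each array had a 2% trimmed mean of 1000, so the authors' scaling to it was kept. How background was corrected and probes were summarised is not stated in the labels used. Arrays give no read depth, and their number limits the precision.

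Intensities were taken to log2. Fly probe sets at or above the 40th percentile of mean log2 signal over the 8 arrays were fitted with limma 3.58.1 (R 4.3.3), with an intensity trend in eBayes and Benjamini-Hochberg adjustment over all 11261. The dsRNAs were compared with each other in a fit with a mean per dsRNA, and with dsRNA 1321-1618 on all 10 arrays. A gene of a list was read at its brightest tested probe set. Probe sets were named through the platform annotation, updated from RefSeq. Of 18769 fly probe sets 13647 had 1 symbol, 402 several and 4720 none, and 13544 of the first matched. Genes were named by a rule: Tip60, the 12 largest called changes each way with groups apart, the 5 of smallest p each way, up to 2 called rises and 2 falls of each list (all members where 3 or fewer were tested), the 3 of smallest p each way between the dsRNAs and those called against dsRNA 1321-1618. Not every list member the rule names is given. Other members of the Tip60 complex, the Arp2/3 complex and the blood cell lists were named after their values were seen. Single values per array were tested with a two-sided exact permutation test.

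Members and lists were chosen with earlier results of these data known. Replicate numbers 1 and 3 recur in both dsRNAs, but same-numbered arrays did not deviate together (correlation 0.0064), so no pairing was assumed. Quantile, loess, median, poly-A and hybridization spike-in scalings, an offset of 16, other filters, blocks and leaving out arrays were tried. The fit was also run on simulated arrays without a shift of brightness or scale, which cannot show how the calls depend on those.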

Additional observations from a re-analysis of the deposited data

Results flagged for a closer look

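Of 344 groups of 4 arrays examined, 22 held 1 array far from the other 3, where chance gives about 1 in 20. On the second principal component replicate 1 of dsRNA 190-807 stood at 53.3, with the other Tip60 RNAi arrays at −19.4 to −10.6. The same array was highest for CCT8 (15548, others 12280.0 to 12801) and PPO2 (34816, others 30049 to 30675), and lowest for Tsp96F (1029, others 1185 to 1207). Replicate 3 of 190-807 was highest for Ugt37D1 (3552, others 2524 to 2647), and replicate 1 of 603-1116 for Loxl2 (90.6, others 74.3 to 76.5).

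The other 16 gene values that stood apart were eGFP arrays. eGFP 2-1 was high for dom (2876, others 2434 to 2501), LManI (349, others 230.3 to 244), Ugt37A1 (81.5, lowest of the others 16.5) and feo (2726, others 2670.2 to 2676), and low for eIF4A (45458, others 58059 to 60655). eGFP 2-2 was high for CG42323 (30.8, others 8.38 to 9.61) and low for CG16888 (829, others 1021 to 1043), Sil1 (1916, others 2024 to 2036) and sbm (5.07, others 48.5 to 52.9). eGFP 3-1 was low for CG5397 (556, others 725 to 743). eGFP 3-2 was high for pain (43.8, others 6.85 to 11.3), ItgaPS4 (217, others 150.2 to 158) and CG3740 (279, others 224 to 231), and low for Spt7 (577, others 625 to 634), Nup75 (2071, others 2629 to 2704) and Nup205 (3466, others 3929 to 4020.0).

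At 4 probe sets the overlapping dsRNAs differed from dsRNA 1321-1618 in the limma fit, with a log2 difference of 3.09 for larp, 1.75 for CG3740, 0.51 for a probe set with no gene name and −0.93 for Idgf2. At other probe sets of larp the pooled Tip60 RNAi arrays were at −0.33 (called) and 0.21 (no call) against eGFP.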

How the results depend on the processing

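The scale decides the direction of small rises, and brightness limits what can be resolved. With arrays scaled to the poly-A spike-ins the pooled comparison called 7130 probe sets, 162 higher and 6968 lower, with 100 rises and 2760 falls of at least 2-fold, and 550 of the list genes were called. Differences between the dsRNAs were then called at 8 probe sets. By construction that scaling lowers each change by the same 0.84. The genes named as rises that it turned negative were dom (−0.41), Spt7 (−0.40), Ada2b (−0.46), IntS6 (−0.23), eIF4A (−0.44), VhaSFD (−0.55), Rab35 (−0.34), Hsc70-3 (−0.32), Cnx99A (−0.45), GCS2alpha (−0.49), deltaCOP (−0.54), ena (−0.15), Pvf2 (−0.18), InR (−0.26), por (−0.12), ex (−0.060), Best1 (−0.20), Oatp30B (−0.11), Oatp74D (−0.29), rdog (−0.23), alpha-Est8 (−0.29), Gclc (−0.26), Ssrp (−0.58), simj (−0.24), hry (−0.44), Gadd45 (−0.085), Hsp26 (−0.20), ref(2)P (−0.41), lz (−0.39), cora (−0.23), Pi4KIIIalpha (−0.29), Hml (−0.17), crq (−0.26), eater (−0.31), Col4a1 (−0.26), vkg (−0.36) and PPO2 (−0.61). That is 37 of 158 genes tried, and 14 more lost their call. Quantile normalization called 1399 rises and 1726 falls, and 1304 of the 1775 rises and 1516 of the 1702 falls were still called in the same direction. Rises of at least 2-fold numbered 208 with quantile normalization, 212 with loess and 171 with the stricter filter, and such falls 109, 98 and 26 under the same settings. The stricter filter tests fewer probe sets, and for quantile and loess the cause was not tested. Loess called 1444 rises and 1735 falls, and median centring 1542 and 2003. Leaving out each array in turn gave 2881 to 3615 calls in the pooled comparison, 0 to 91 between the dsRNAs and 3 to 9 against dsRNA 1321-1618, where 9 came without eGFP replicate 3-2, and 8 and 7 without replicates 1 and 2 of 1321-1618. Where such a fit left a dsRNA with 1 array, that array is assumed to vary like the other groups. Without replicate 3 of 190-807 there were 91 between the dsRNAs, and without replicate 1 of 603-1116 there was 1. With the replicate number as a block 3642 probe sets were called in the pooled comparison and 0 between the dsRNAs, and 1 of the 158 genes changed its call. The other planned settings of the pooled comparison gave 3179 to 3685 calls, and scaling to the hybridization spike-ins, added after the data were seen, 4121.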
